A study of Mus musculus with 278 samples.

Results

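Single cells of the GHA501A libraries that expressed both Krt14 and Col1a1 (mixed cells) were compared with cells of the same libraries that expressed Col1a1 with little or no Krt14 (fibroblast-like cells). The cells were chosen by 2 measured values. Mixed cells had Krt14 of at least 10 TPM and Col1a1 of at least 100 TPM, and fibroblast-like cells had Krt14 under 10 TPM and Col1a1 of at least 100 TPM, where TPM is a transcript level corrected for gene length that adds up to a fixed total per cell. The rule gave 38 mixed and 83 fibroblast-like cells out of the 140 labelled GHA501A cells and the 270 labelled cells analysed in the series. A further 18 GHA501A cells had Krt14 of at least 10 TPM and Col1a1 under 100 TPM and are called keratinocyte-like, and 1 cell met none of the 3 definitions. The classes were cut from the measured values of these same cells, so each is a range of 2 gene levels and not a sorted type.

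All cells came from adult mouse dorsal skin, were cultured as keratinocytes in a medium with foetal calf serum, and were grown as co-cultures of 9 parts wild type to 1 part K14ΔNβ-cateninER cells. The transgene is a truncated, stable form of beta-catenin joined to the hormone-binding part of the oestrogen receptor, driven by the keratin 14 promoter, and its product is activated by 4-hydroxy-tamoxifen (4OHT). The treated set received 200 nM 4OHT for 24 h and the untreated set received DMSO. Transgenic and wild type cells were not told apart here, so both can be present in each class. Cells were captured on a microfluidic chip, and the protocol says that doublets, seen by imaging of the capture sites, and non-viable cells were kept out of the study's later analysis. Whether the deposited columns still hold such cells is not stated in the sources used here. There was 1 GHA501A set per treatment, with 71 untreated and 69 treated cells, so treatment cannot be told apart from the set. The deposited values sum to 1000000 in every cell, so they do not carry the depth of the single cells, no counting interval can be given for a level, and no doublet caller was run.

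Keratin 14 pairs with keratin 5 in the filaments of basal epidermal keratinocytes, and keratins 6, 16 and 17 are added when these cells are stressed or cultured. Col1a1 encodes a chain of type I collagen, the main fibrillar collagen of the dermis, and is a standard fibroblast marker. Cells that hold epithelial and mesenchymal transcripts together are described in epithelial-mesenchymal transition (EMT), and they can also appear in single-cell data when RNA of more than 1 cell enters a library.

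The values that chose the cells are given as a description, without a test. In the mixed cells Krt14 had its lowest, median and highest value at 10.4, 28.1 and 629 TPM in the untreated set (13 cells). In the treated set (25 cells) these values were 10.1, 47 and 3211 TPM. Most mixed cells were therefore near the lower limit, since 24 of 38 had under 50 TPM and 26 under 100 TPM, while 12 had at least 100 TPM and 6 at least 500 TPM. Of the 12 cells with at least 100 TPM, 2 were untreated and 10 treated. The keratinocyte-like cells had Krt14 medians far above those of the mixed cells, at 1676 TPM (untreated set) and 3362 TPM (treated set). Their lowest value was 489 TPM, so the 6 mixed cells of at least 500 TPM were within their range over both sets. Krt14 (chromosome 11, 100203162 to 100207548, GRCm38) and Col1a1 (chromosome 11, 94936224 to 94953042) were left out of all fits.

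**Figure D1:**
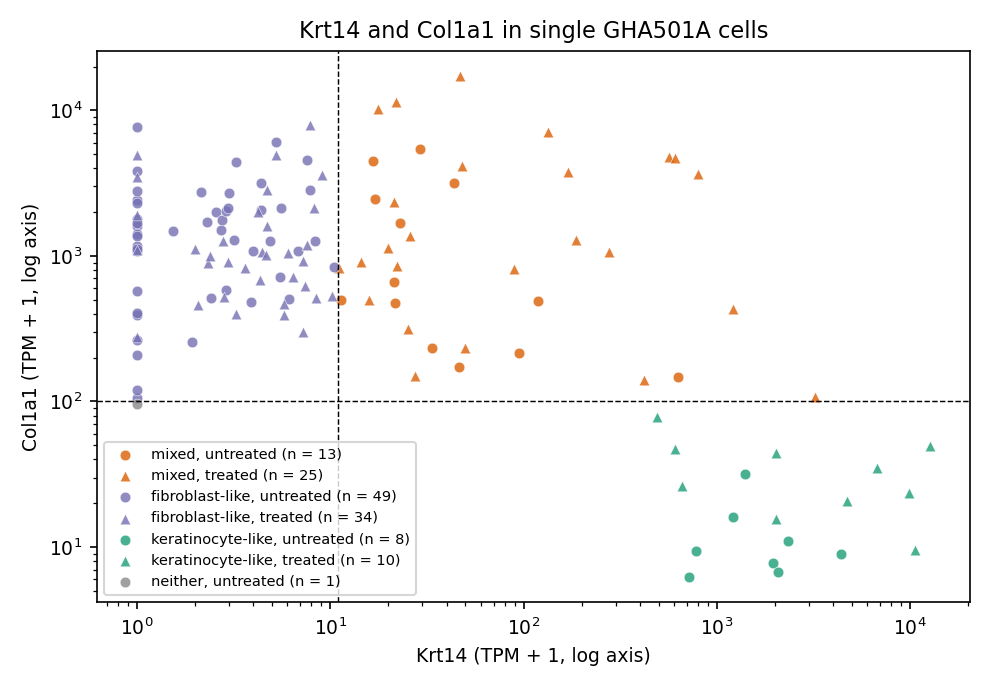
Krt14 (x axis) and Col1a1 (y axis) in each labelled GHA501A cell, both as TPM + 1 on log axes. Each point is 1 cell, circles are the untreated and triangles the treated set, and dashed lines mark the limits of 10 TPM for Krt14 and 100 TPM for Col1a1. Mixed cells extend from the limit at 10 TPM up to 3211 TPM, with 26 of 38 under 100 TPM.

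Fibroblast-like cells were not free of Krt14. Of the 83 cells, 54 had Krt14 over 1 TPM and 26 were listed at 0. Of the untreated ones 21 of 49 were at 0, with a median of 1.32 TPM, whereas 5 of the 34 treated ones were at 0, with a median of 3.54 TPM. The 3 fibroblast-like cells closest to the limit had 9.52, 9.23 and 8.03 TPM, and the 3 mixed cells closest to it had 10.1, 10.4 and 13.4 TPM. The distribution of Krt14 among cells with Col1a1 thus had no gap at the limit.

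Mixed cells made up 18.3% of the untreated set (13 of 71, exact binomial 95% interval 10.1 to 29.3%) and 36.2% of the treated set (25 of 69, interval 25 to 48.7%). Among cells with Col1a1 of at least 100 TPM the shares were 20.97% and 42.4%. With Krt14 of at least 100 TPM the shares were 2.82% and 14.5% of all cells. The intervals cover the counting of cells only, and with 1 set per treatment the difference has no replicate test. Keratinocyte-like cells, whose own Krt14 median was higher in the treated set, were 11.3% of untreated and 14.5% of treated cells.

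The fibroblast label was checked against the other markers. Of 24 fibroblast identity genes other than Col1a1, 19 are in the table, and fibroblast-like cells detected a median of 16 of them over 1 TPM, as did mixed cells, against 10.5 in keratinocyte-like cells. The list level, the mean of log2(TPM + 1) over the list, was 5.70 and 5.80 in fibroblast-like cells of the untreated and treated set, 5.49 and 5.71 in mixed cells, and 1.99 and 2.35 in keratinocyte-like cells. Not every member was widespread, since Dcn was over 1 TPM in only 26 of 83 fibroblast-like, 8 of 38 mixed and 2 of 18 keratinocyte-like cells. Pdgfra, Pdgfrb, Lum, Thy1 and Fap were not analysed here. The labels call all of these cells keratinocytes. Of the 26 keratinocyte identity genes in the table, Krt14 not among them, fibroblast-like cells detected a median of 5, mixed cells 7 and keratinocyte-like cells 21.5.

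Of all list levels, those of the stress and simple-epithelium keratins (difference 1.04) and of keratinocyte identity differed most between mixed and fibroblast-like cells. The keratinocyte list level was 0.91 and 1.44 in mixed cells of the untreated and treated set, 0.53 and 0.63 in fibroblast-like cells, and 5.05 and 5.11 in keratinocyte-like cells. Mixed cells were 0.59 ± 0.30 (SD, n = 2 sets) above fibroblast-like cells on this log2 scale. Both sets had the same direction, but the exact sign-flip permutation test over 2 sets (two-sided) cannot go below p = 0.5. Cell by cell, 33 of 38 mixed cells were above the fibroblast-like median of their own set, and 13 were above the highest fibroblast-like cell (1.21). These 13 were 9 of the 12 cells with Krt14 of at least 100 TPM and 4 of the 26 cells below it. Without the 12 cells of at least 100 TPM, the difference in list level fell to 0.27. The 2 classes were separated by Krt14, and other keratinocyte genes can vary with it in the same cells. Among the 83 fibroblast-like cells, Pearson r between this list level and log2(Krt14 TPM + 1) was 0.35. Differences in keratinocyte, keratin, desmosome and suprabasal genes, and the splits at 100 TPM, are therefore not independent of how the cells were chosen.

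**Figure D2:**
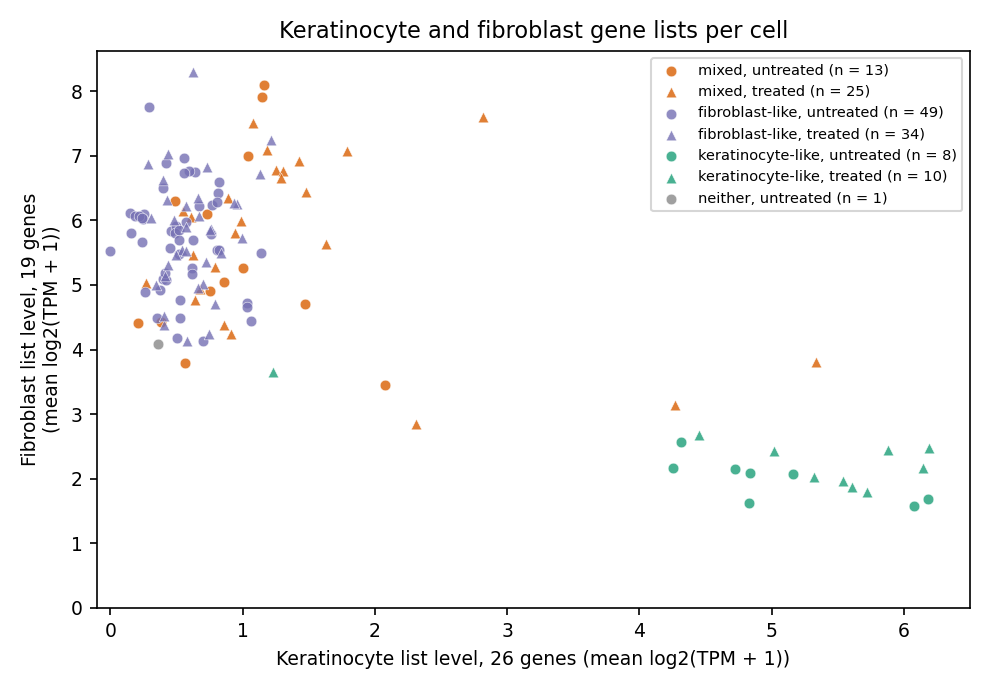
Level of the 26 keratinocyte identity genes (x axis) against the level of the 19 fibroblast identity genes (y axis), each the mean of log2(TPM + 1) over the list, for each labelled GHA501A cell. Colours give the class, circles the untreated and triangles the treated set. Most mixed cells lie among the fibroblast-like cells, 13 lie above the highest fibroblast-like keratinocyte level of 1.21, and 2 treated mixed cells reach 4.27 and 5.34.

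Individual cells covered a wide range. The keratinocyte list level was 1.23 in 1 keratinocyte-like cell and 4.26 to 6.19 in the other 17, and 2 treated mixed cells, at 5.34 and 4.27, were within that upper range. The first had Krt14 at 1212 TPM, Col1a1 at 430 TPM, 22 of 26 keratinocyte and 15 of 19 fibroblast genes over 1 TPM, and 7280 genes detected. The second had Krt14 at 3211 TPM, Col1a1 at 106.1 TPM, just above the limit, with 17 keratinocyte and 14 fibroblast genes, and 6976 genes detected. Their fibroblast list levels, 3.81 and 3.14, were below the lowest fibroblast-like cell (4.13). A further treated cell combined Krt14 at 793 TPM and 18 keratinocyte genes with Col1a1 at 3681 TPM and a fibroblast list level of 7.59, well inside the fibroblast-like range. In all, 5 of 38 mixed cells were below the lowest fibroblast-like cell in the fibroblast list, and 4 of these had Krt14 of at least 100 TPM.

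Across all genes, limma with Benjamini-Hochberg adjustment called 0 of 11085 genes higher and 0 lower in mixed than in fibroblast-like cells (adjusted p under 0.05 and log2 difference over 0.5), a background of 0% in each direction. The smallest adjusted p was 0.905, and 493 genes (4.45%) had an unadjusted p under 0.05. With only the 2 compared classes in the limma fit, 1241 of 11085 genes had an unadjusted p under 0.05, and 0 were called. The share of 4.45% thus depends on the keratinocyte-like means, which share the estimate of spread. The main fit, of 3 classes, compared the class means of the 2 sets, since cells of a set are not replicates. On simulated data with the spread of these sets it recovered 0% of the genes given a log2 change of 1 or of 2 and 47.5% of those given a change of 3, so changes smaller than that were not detectable. The differences of the 2 sets correlated across genes with Pearson r = 0.26, where genes are not independent replicates. Every difference from fibroblast-like cells given for single genes below is therefore a value that did not pass the test, and directions count the sets only. For reference, 28.4% of all genes tested were higher and 30.4% lower in mixed cells in both sets.

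Of the 26 keratinocyte identity genes, 18 were higher and 2 lower in mixed cells in both sets, with a median log2 difference of 0.47 against -0.0086 over all genes. Krt5, the partner of Krt14, had lowest, median and highest values of 0, 0 and 18.1 TPM in untreated mixed cells and 0, 24.4 and 1372 TPM in treated ones. In fibroblast-like cells these were 0, 0 and 20.9 TPM untreated and 0, 1.43 and 17.1 TPM treated. Krt5 thus overlapped with fibroblast-like cells in the untreated set and extended far above them in the treated set, where 23 of 25 mixed cells had over 1 TPM. Its log2 differences were 0.42 and 3.57 (limma, adjusted p = 0.905). Sfn, which encodes the epithelial 14-3-3 sigma protein, was over 1 TPM in 6 of 13 untreated and 23 of 25 treated mixed cells, against 14 of 49 and 23 of 34 fibroblast-like cells. Its log2 difference was 1.99 ± 0.57 (SE) and close in both sets (1.73 and 2.26). Epcam, an epithelial adhesion molecule, differed by 0.57 and 2.18, and Klf5, a transcription factor of basal keratinocytes, by 2.63 and 0.48. Krt15, another basal keratin, was listed at 0 in all 38 mixed cells and was over 1 TPM in 8 of 83 fibroblast-like and 9 of 18 keratinocyte-like cells.

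Keratins of stressed and simple epithelia had the largest median difference of the lists, 0.87 over 8 genes, of which 6 were higher in both sets and 0 lower. Krt17 (chromosome 11, 100256217 to 100261029) had lowest, median and highest values of 1.91, 20.7 and 5137 TPM in untreated and 0, 86.2 and 6313 TPM in treated mixed cells. Fibroblast-like cells had 0, 12.0 and 1143 TPM untreated and 0, 9.97 and 577 TPM treated, so the classes overlapped broadly and 5 mixed cells, all with Krt14 of at least 100 TPM, were above every fibroblast-like cell. The log2 difference of Krt17 was 2.38 ± 0.53 (SE), with 1.62 and 3.14 in the 2 sets. Krt6a differed by 0.65 and 3.14, Krt6b by 0.54 and 1.74, and Krt18, a simple-epithelium keratin, by 1.03 and 1.21. Krt18 nonetheless had a median of 0 TPM in both classes of both sets, so its difference rests on a minority of cells. Of mixed cells, 5 of 13 untreated and 6 of 25 treated had Krt18 over 1 TPM, against 10 of 49 and 9 of 34 fibroblast-like cells. Krt6a and Krt6b are close paralogs, and multiply-mapped reads had been discarded, so their values are uncertain. The highest untreated Krt14 cell (629 TPM) had Krt17 at 5137 TPM with Krt5 and Krt6a at 0.

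Desmosome genes, which encode the junctions that hold keratinocytes together, had a median difference of 0.44 over 9 genes, with 6 higher in both sets and 0 lower. Jup (plakoglobin) differed by 0.62 and 1.08 and Dsp (desmoplakin) by 0.46 and 0.83. Dsp was nonetheless over 1 TPM in only 7 of 38 mixed cells and in 1 of 83 fibroblast-like cells. Of the suprabasal genes, which mark differentiating keratinocytes, 7 of the 13 listed were tested, with a median difference of 0.56. Among them 3 were higher in both sets and 0 lower, and Sprr1a, a precursor of the cornified envelope, differed by 0.80 and 1.26. The median of Sprr1a was 0 TPM in both classes of both sets. It was over 1 TPM in 23.1% of untreated and 44% of treated mixed cells, against 26.5% and 32.4% of fibroblast-like cells.

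Mean levels were also set against the keratinocyte-like cells, gene by gene, for 25 keratinocyte genes with a mean of at least 100 TPM there, Krt14 not counted. Mixed cells reached 0.797 to 63.3% of the keratinocyte-like mean, with a median of 7.24%. Against the keratinocyte-like cells of their own set, the median was 2.0% for untreated and 8.79% for treated mixed cells, and Krt5 was at 0.273% and 10.2%. In the 26 cells with Krt14 under 100 TPM the median was 0.873%, against 0.289% in fibroblast-like cells, and Krt14 itself was at 0.839%. In the 12 cells with at least 100 TPM the median was 14.7%, with Krt14 at 19.1%. These means rest on few cells, which differ from gene to gene. The 3 highest cells held 88.7% of the summed Krt5 TPM (mean 351 TPM, median 55.2 TPM), 75.3% of that of Krt17 (mean 1827 TPM, median 724 TPM) and 95.1% of that of Col17a1. By mean TPM, Krt17 was at 11.2%, Krt6a at 6.97%, Sfn at 9.62% and Cldn4, a claudin, at 2.25%, whereas Krt5 was at 25.3%, the hemidesmosomal collagen Col17a1 at 38.5% and its partner integrin Itga6 at 49.3%. The mean TPM of Krt17 was 2.64 times that of Krt14 in these cells and 4.51 times in keratinocyte-like cells, and that of Krt6a was 0.587 times and 1.61 times. For Krt5 the ratio to Krt14 was 0.507 and 0.383, and for Perp, a desmosome-associated membrane protein, it was 0.219 and 0.215. By mean TPM, Klf5 and Krt19 were at 64.6% and 43.2% already in the cells under 100 TPM, and were also the highest in fibroblast-like cells, at 14.9% and 22.1%. The Klf5 mean, too, was uneven over cells. In the 26 cells under 100 TPM its median was 0.70 TPM and its highest value 878 TPM, with 13 cells over 1 TPM. The Klf5 median of keratinocyte-like cells was 84.5 TPM.

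**Figure D3:**
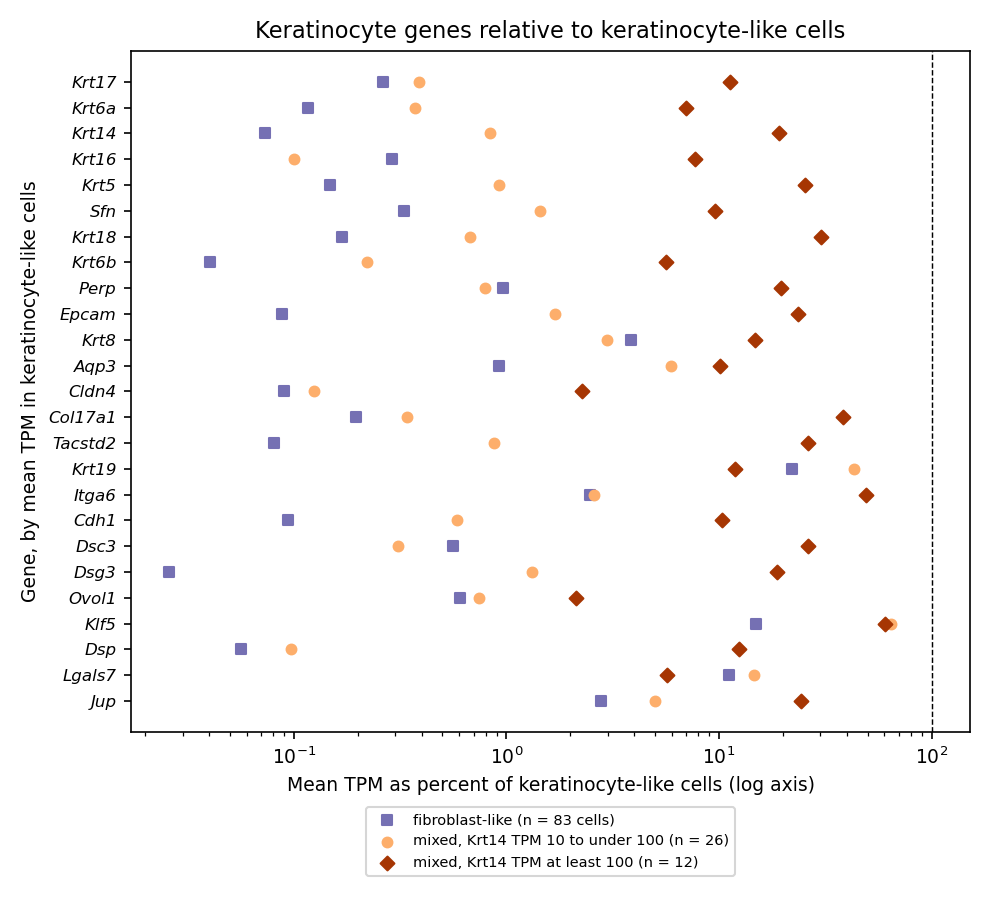
Mean TPM of keratinocyte genes as a percent of their mean in the 18 keratinocyte-like cells (x axis, log scale), with genes ordered on the y axis by that mean. Squares are the 83 fibroblast-like cells, circles the 26 mixed cells with Krt14 of 10 to under 100 TPM, and diamonds the 12 mixed cells with at least 100 TPM. Krt14 chose the cells and is drawn for scale, and the medians over the other 25 genes, 1 of them not drawn, are 0.289%, 0.873% and 14.7%.

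Fibroblast genes were also compared by mean TPM. For 9 fibroblast genes with a mean of at least 100 TPM in fibroblast-like cells, mixed cells were at 74.8% (Fstl1) to 182.4% (Col6a2) of the fibroblast-like mean, with a median of 158.2%. Within the sets the medians were 99.6% (untreated, range 45 to 295%) and 113.1% (treated, range 61.6 to 245%), and the direction of single genes turned, as for Col3a1 (294.6% and 88.9%) and Col1a2 (88.6% and 245.4%). The median was 110% in the 12 cells with Krt14 of at least 100 TPM. Keratinocyte-like cells had a median of 3.77% for the same genes. These are means over cells and a few cells carry them, and on the log2 scale the fibroblast list level was 0.15 ± 0.08 (SD, n = 2 sets) lower in mixed cells. That difference was 0.0033 in the cells under 100 TPM and -0.79 in those of at least 100 TPM. Of the 19 fibroblast genes 3 were higher and 6 lower in both sets, with a median log2 difference of -0.09. Bgn, a matrix proteoglycan, differed by -1.19 and -0.67, Dcn, another one, by -0.75 and -0.90, and Col5a1, a minor fibrillar collagen, by 0.86 and 0.54. The median of Dcn was 0 TPM in both classes of both sets, so its difference rests on a minority of cells.

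Among the mixed cells the keratinocyte list level went with Krt14, and this rested on the cells of high Krt14. Over 38 cells, Pearson r between the list level and log2(Krt14 TPM + 1) was 0.70 and Spearman's rho 0.41. Over the 25 treated cells r was 0.73 and rho 0.59, but over the 13 untreated cells r was 0.40 and rho -0.14, so the ranks did not show the relation there. Over the 26 cells with Krt14 under 100 TPM it was -0.39, and for Krt17 it was -0.0043, so the relation did not hold there. The fibroblast list level had r = -0.26 with Krt14 and log2 Col1a1 had r = -0.16 over the 38 cells. These are descriptions over cells that share 2 sets and the same scaling, in which a rise of some genes lowers the share left for others.

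Genes detected per cell, with TPM over 1, did not separate the classes. Medians were 6495 (untreated) and 6008 (treated) in mixed cells, 6277 and 6061 in fibroblast-like cells, and 6852.5 and 5819 in keratinocyte-like cells. Mixed cells were thus 218 genes above untreated fibroblast-like cells and, among treated cells, 53 below (exact sign-flip permutation p = 1.0, n = 2 sets). None of the 38 mixed cells was above the highest fibroblast-like cell, which had 7592 genes, and 21 of 38 were above the fibroblast-like median of their set. In mixed cells with Krt14 of at least 100 TPM, 9 of 12 were above that median, and the difference of medians was 389 genes as the mean of the 2 sets. In cells under 100 TPM, 12 of 26 were above it, and the difference was -157.5 genes. Over the 38 cells genes detected had r = 0.38 with log2 Krt14.

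**Figure D4:**
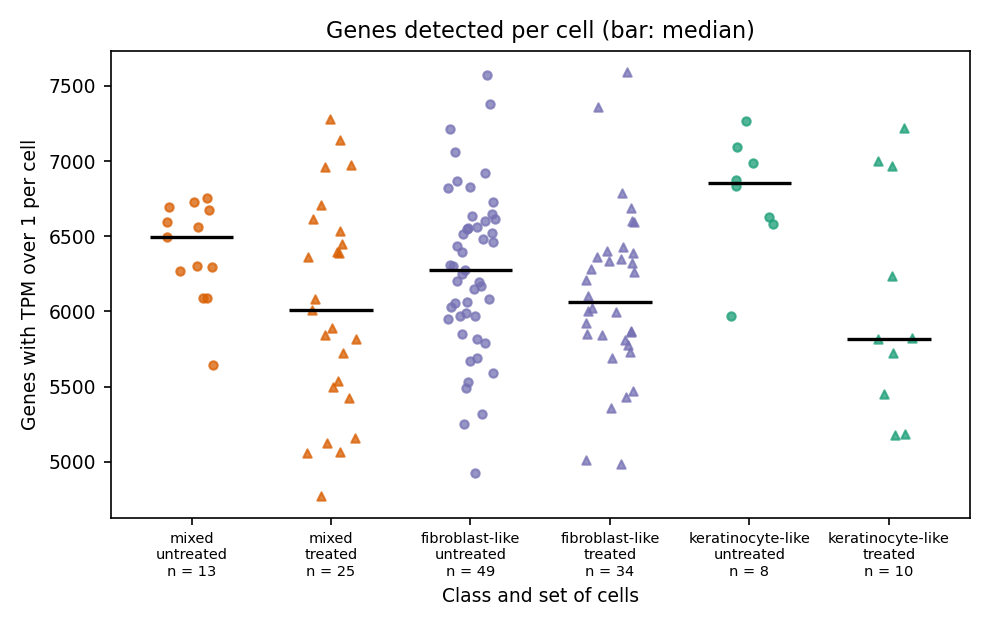
Number of genes with TPM over 1 in each GHA501A cell (y axis, not starting at 0) by class and set (x axis). Each point is 1 cell and the bar is the median, which is 6495 and 6008 in mixed and 6277 and 6061 in fibroblast-like cells of the untreated and treated set. The classes overlap throughout.

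For EMT regulators and mesenchymal genes, the difference between mixed and fibroblast-like cells was smaller than the spread between the sets. The list level was 3.88 and 3.70 in mixed, 3.88 and 3.78 in fibroblast-like, and 2.62 and 2.57 in keratinocyte-like cells. The mixed cells differed from fibroblast-like cells by -0.033 ± 0.057 (SD, n = 2 sets). Of 21 genes 7 were higher and 7 lower in both sets, and the median difference was 0.03. Itga5, the fibronectin receptor subunit, differed by 0.85 and 1.62 and Snai1, a repressor of epithelial genes, by -0.61 and -0.94. Snai1 medians were 75.7 and 73.3 TPM in mixed and 135.4 and 108.8 TPM in fibroblast-like cells of the untreated and treated set. Of the contractile and mural cell genes, which mark myofibroblasts and vessel-associated cells, 0 of 7 were higher and 5 lower in both sets. Acta2, smooth muscle actin, had median values of 7.07 and 1.91 TPM in mixed and 11.1 and 3.92 TPM in fibroblast-like cells, and the highest values were 333 and 1394 TPM against 5098 and 5129 TPM. It differed by -1.25 ± 0.34 (SE) on the log2 scale.

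The levels of the cell cycle lists differed in direction between the sets, although many single genes did not. The S phase list of 40 genes had a median difference of 0.11, with 14 higher and 11 lower in both sets. The G2/M list of 48 genes had a median difference of -0.36, which was -0.64 (untreated set) and 0.07 (treated set), and 5 genes were higher and 20 lower in both sets. The G2/M level was 4.16 and 4.33 in mixed and 4.87 and 4.25 in fibroblast-like cells, so the untreated mixed cells were the lower ones. In mixed cells with Krt14 under 100 TPM this level was lower than in fibroblast-like cells in both sets (-0.61 and -0.23). In those of at least 100 TPM (2 untreated and 10 treated cells) it differed by -1.27 and 0.54. Ccnb1 (cyclin B1) differed by -2.16 and -0.63 and Anln, which encodes the cytokinesis protein anillin, by -1.60 and -1.06. Mixed cells at both ends of the G2/M range were present (1.66 to 7.38), within the range of the fibroblast-like cells (1.65 to 8.19).

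**Figure D5:**
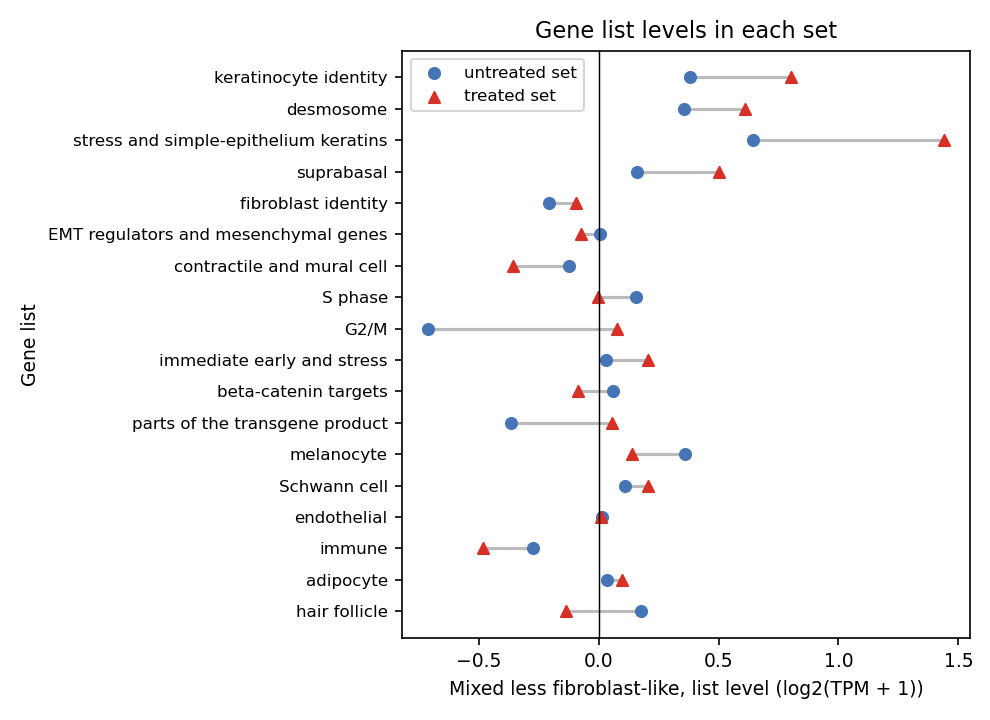
Difference of list level between mixed and fibroblast-like cells (x axis, mean of log2(TPM + 1) over each list) for each gene list (y axis). Circles are the untreated set, triangles the treated set, and grey lines join them. The 4 epithelial lists at the top are above 0 in both sets, and G2/M is at -0.71 (untreated) and 0.079 (treated).

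The genes with the largest differences of the same direction in both sets were mostly outside these lists. By more than 1 on the log2 scale in both sets, 50 genes (0.451%) were higher and 1.68% of the 11085 genes lower in mixed cells. Orm1, which encodes the acute-phase plasma protein orosomucoid, had lowest, median and highest values of 0, 201 and 3899.8 TPM in untreated and 0, 99.3 and 5338 TPM in treated mixed cells. In fibroblast-like cells the values were 0, 9.62 and 4674 TPM and 0, 1.89 and 1876 TPM, and 29 of 38 mixed cells were above the fibroblast-like median of their set. The log2 difference was 3.0 ± 0.87 (SE), and Orm1 has close paralogs. The other genes named for their size in this direction were Zfp52 (2.02) and Zfp512 (1.75), which encode zinc finger proteins, Pitrm1 (1.68), a mitochondrial peptidase, Acp2 (1.67), a lysosomal phosphatase, Pdgfrl (1.57), Pigv (1.56), an enzyme of GPI anchor synthesis, and Rhbdf1 (1.45), together with Krt17 and Sfn. In the other direction Csrp2, a LIM domain protein of smooth muscle and mesenchymal cells, was over 1 TPM in 13 of 38 mixed and 64 of 83 fibroblast-like cells, with a difference of -2.73 ± 0.44 (SE). Alg14 (-2.67), Rsph3b (-2.52), Clpp (-2.51), Thyn1 (-2.47), Mrpl46 (-2.34), Gm17018 (-2.25), Nanp (-2.24), Tm2d2 (-2.18) and 1110059E24Rik (-2.04) followed. Clpp is a protease and Mrpl46 a ribosomal protein of mitochondria, Alg14 acts in protein glycosylation, and Rsph3b has a near-identical copy. These genes were picked for their size, so their order is a description.

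Against keratinocyte-like cells the mixed cells differed widely. Limma called 1.22% of 11085 genes higher and 1.89% (210 genes) lower in mixed cells (adjusted p under 0.05 and log2 difference over 0.5). The 2 classes were separated by Col1a1, and fibroblast genes vary with it in the same cells, so these counts are not independent of how the cells were chosen. Of the fibroblast identity genes 14 of 19 were higher and 0 lower, and of the EMT list 7 of 21 were higher and 0 lower. Of the keratinocyte identity genes 19 of 26 were lower, as were 8 of 9 desmosome genes and 7 of 8 stress and simple-epithelium keratins. The largest rises were those of Col6a1, a chain of type VI collagen (log2 difference 6.83, adjusted p = 0.00509), Slc43a3 (5.93), Serpinf1 (5.80), Pcolce, an enhancer of procollagen processing (5.45), and Prune2 (5.41). The largest falls were those of Krt17 (-7.77), Krt6a (-7.62), the chemokine Ppbp (-7.42), Krt18 (-7.15) and Perp (-6.98). The counts rested on the mixed means of both sets. Without that of the untreated set limma called 0 genes in either direction (1192 at an unadjusted p under 0.05), and without that of the treated set 12 were higher and 26 lower. With mixed cells of Krt14 of at least 100 TPM only, 0 genes were called higher and 0 lower (1354 at an unadjusted p under 0.05).

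The transcripts that make up the transgene product did not separate the classes. Esr1, the oestrogen receptor gene, was over 1 TPM in 4 of 38 mixed and 12 of 83 fibroblast-like cells, with a log2 difference of -0.08. Ctnnb1, beta-catenin, had medians of 53.7 and 52.5 TPM in mixed and 62.9 and 54.1 TPM in fibroblast-like cells, and a difference of -0.23. Of 7 beta-catenin target genes tested, 2 were higher and 3 lower in both sets, with a median of -0.05. Immediate early and stress genes, which respond to handling, had a median difference of 0.06 over 14 genes. Hspb1, a small heat shock protein that keratinocytes also express, differed by 0.80 and 1.31. Whether RNA from keratinocytes in the same culture, a second cell in a library, or expression by the cells themselves gave the keratinocyte transcripts was not tested.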

How the data were processed

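The authors checked reads with FastQC, trimmed them with Cutadapt, mapped them with Tophat (GRCm38), kept reads with a single map position, used featureCounts for gene counts and deposited TPM for 14145 genes in 294 columns. Of these columns, 16 match no label and 8 carry conflicting labels, and these 24 were not used. Positions are from GENCODE M21.

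The filter kept genes above 1 TPM in over 5 cells, Krt14 and Col1a1 left out, and log2(TPM + 1) was averaged over the cells of each class in each set, which understates changes of low genes. The means of 3 classes in 2 sets were compared in one fit with the set as block (limma 3.58.1 in R 4.3.3, moderated test, two-sided, Benjamini-Hochberg adjustment over 11085 genes). The sets are single cultures as far as the labels say, 1 untreated and 1 treated. With the set as block, p-values measure only how differences among the 3 classes varied between these 2 sets. Any response to treatment that differs between classes is part of that spread, which is not one of replicate cultures. List levels were compared by exact sign-flip permutation and shares given with exact binomial intervals. The fit was tested on simulated data. The most alike pair of cells had r = 0.79, and 0 columns were identical.

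The classes and gene lists were chosen with earlier results of these data known. Genes are named from each list (up to 4 of largest absolute difference), and the 10 of largest difference in each direction by the smaller of the 2 sets' values, or 5 against keratinocyte-like cells, where past the test they are ranked by size. A few genes that this rule or a list holds are not reported here by name. Other genes are named as examples chosen after their values were seen. Other steps used matplotlib 3.10.9, scipy 1.17.1, pandas 2.3.3, numpy 2.4.6 and Python 3.11.15. Alternatives were other limits for Krt14 and Col1a1, pseudocount 0.1, other filters, 2 classes only, medians, no block, and each set left out. Mixed cells under 100 TPM and leaving out the mixed mean of a set were added after seeing the data.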

Additional observations from a re-analysis of the deposited data

Results flagged for a closer look

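In 5 measures flagged here the difference between mixed and fibroblast-like cells had opposite signs in the 2 sets. This contrast of the sets was not tested, since there was 1 set per treatment. Opposite signs were also present in the list levels of beta-catenin targets (0.059 untreated and -0.085 treated), parts of the transgene product (-0.36 and 0.055) and hair follicle (0.18 and -0.13). Genes detected per cell differed by 218 in the untreated and by -53 in the treated set. The cell cycle level (S phase and G2/M lists together, log2 scale) differed by -0.32 and 0.042. Within it the G2/M level differed by -0.71 and 0.079 and the S phase level by 0.16 and -0.0024. The EMT list level differed by 0.0073 and -0.073.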

How the results depend on the processing

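Of 83 alternatives, 55 moved a result by less than the spread of the sets, its interval (for shares) or 1.5 times its count, and 5 of these changed its sign (genes detected -53 without the untreated set and -92.75 counting TPM over 10, cell cycle level 0.042 without the untreated set and 0.056 with mixed cells from Krt14 of 50 TPM, EMT level 0.0073 without the treated set). The causes of these and the other changes were not tested. No alternative limma fit called a gene between mixed and fibroblast-like cells, with 221 to 1241 genes at an unadjusted p under 0.05. The library numbers in the labels name single cells and pair no samples, so the block is the set. Without the replicate block the share called there was also 0 in each direction, and against keratinocyte-like cells it was 1.48% higher and 2.14% lower. Against keratinocyte-like cells, where 1.22% and 1.89% were called, the shares of genes called higher and lower were 0 and 0% without a filter on low values (2592 genes at an unadjusted p under 0.05), 0.604 and 0.947% with only these 2 classes in the fit, 0.695 and 0.397% with the log of the mean TPM, 0.174 and 0.229% with mixed cells from Krt14 of 50 TPM, 0 and 0% from 100 TPM, and between 0 and 0.108% higher and 0 and 0.235% lower without the mixed mean of 1 set. In such a fit the lone mixed mean is assumed to vary like the others.

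With mixed cells from Krt14 of 50 and of 100 TPM, the difference from fibroblast-like cells was 393 and 389 genes detected, -0.22 and -0.23 in the EMT level, 1.02 and 1.31 in the keratinocyte level, and -0.81 and -0.79 in the fibroblast level. With only the cells under 100 TPM it was -157.5 genes, 0.27 in the keratinocyte and 0.0033 in the fibroblast level. Counting TPM over 0 gave -254.8 genes, a pseudocount of 0.1 gave -0.096 in the EMT level, and medians over cells gave -0.30 in the fibroblast level. Leaving out each set in turn gave -53 to 218 genes, -0.32 to 0.042 in the cell cycle, -0.073 to 0.0073 in the EMT, 0.38 to 0.80 in the keratinocyte and -0.21 to -0.093 in the fibroblast level. The share of mixed cells was higher in the treated set under every limit tried. With 2 sets, no depth per cell and values per cell that can be 0 by failed capture, differences under a log2 value of 3 in single genes were mostly out of reach.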

Other observations

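In some genes the mean of the mixed cells lay beyond the means of both other classes. In both sets, 19 of 11085 genes (0.171%) were higher than in fibroblast-like and in keratinocyte-like cells by more than 1 on the log2 scale, among them Orm1, Acp2, Pdgfrl, Pigv and Lamb2, a basement membrane laminin chain. In the other direction there were 29 (0.262%), among them Csrp2, Anln, Clpp, Mrpl46 and Mrps6. Neither count has a test. Both counts compare class means, and single cells overlapped in the 2 genes looked at. For Orm1, 2 of 38 mixed cells were above the highest fibroblast-like cell. For Csrp2 the lowest fibroblast-like cell was at 0 TPM, so mixed cells could not be below it.

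Markers of other skin cell types were at different levels. The endothelial genes in the table (4 of 8) were at list levels of 0.078 and 0.10 in mixed and 0.062 and 0.091 in fibroblast-like cells of the untreated and treated set. The Schwann cell list was at 0.25 and 0.34 in mixed and 0.14 and 0.13 in fibroblast-like cells. The immune list (3 of 9 genes) was at 2.11 and 1.90 in mixed and 2.38 and 2.38 in fibroblast-like cells, and its Lyz2, the macrophage lysozyme, had medians of 127.7 and 25.4 TPM in mixed and 108.9 and 99.5 TPM in fibroblast-like cells. The immune list level was above the fibroblast-like median of the own set in 11 of the 26 mixed cells with Krt14 under 100 TPM and in 0 of the 12 with at least 100 TPM. Of the melanocyte genes, Tyr (tyrosinase) was over 1 TPM in 38 of 38 mixed and 77 of 83 fibroblast-like cells, at medians of 6.40 and 9.79 TPM in mixed and 5.71 and 4.82 TPM in fibroblast-like cells, while Dct, Kit and Tyrp1 were not analysed here. Tyr was not particular to these classes. In keratinocyte-like cells it was over 1 TPM in 7 of 8 untreated and 9 of 10 treated cells. Its medians there were 2.91 and 4.59 TPM. The melanocyte list was at 1.61 and 1.47 in mixed and 1.25 and 1.33 in fibroblast-like cells, and the hair follicle list (4 of 8 genes) at 2.87 and 2.43 and at 2.69 and 2.57. The adipocyte list differed by 0.035 and 0.096 and the hair follicle list by 0.18 and -0.13 between mixed and fibroblast-like cells.

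In the other library series of the study (AG), 2 of 66 untreated and 4 of 64 treated cells met the definition of mixed cells. Their Krt14 was at 682 to 3701 TPM and their Col1a1 at 102.9 to 325 TPM, against a median Krt14 of 4864 and 4997 TPM and a median Col1a1 of 0 in all cells of the 2 AG sets.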
